A study of Mus musculus with 10 samples.

Results

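Zinc is buffered inside cells by metallothioneins, sensed by the zinc-finger transcription factor MTF1 and moved across membranes by the ZnT (Slc30) and ZIP (Slc39) transporters. When free zinc in the cytosol rises, MTF1 binds metal response elements in the promoters of *Mt1*, *Mt2* and *Slc30a1* and their transcripts increase, so these genes are widely used as a read-out of cellular zinc. ZnT proteins move zinc out of the cytosol, across the plasma membrane or into vesicles and the secretory pathway, and ZIP proteins move it into the cytosol. StcE is a bacterial zinc metalloprotease that cuts mucin-domain glycoproteins, and 9 genes of this system, chosen by name, were examined in brain endothelial cells that had been given the enzyme: the metallothioneins *Mt1* and *Mt2*, the sensor *Mtf1*, the exporters *Slc30a1*, *Slc30a5* and *Slc30a7*, and the importers *Slc39a6*, *Slc39a10* and *Slc39a14*. They are 9 of the 27024 rows with a gene name in the expression table.

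Bulk RNA-seq had been performed on bEnd.3 cells, an immortalised mouse brain endothelial line of WT genotype, grown in high-glucose DMEM with serum and antibiotics. Saline was given to 5 samples (replicates 1, 2, 3, 4 and 5) and 5 nM StcE to 5 samples (replicates 1, 2, 3, 5 and 6), both for 16 h in growth medium. All samples are of 1 line, and no group given an inactive enzyme was analysed here. The sources do not say whether the replicates were separate cultures. The p-values set the group differences against the spread between these samples, which may be technical.

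Values are FPKM (fragments scaled by exon length and sequencing depth), as deposited. Recovered fragments per sample ranged from 22413605 to 29664138 for saline and from 22375194 to 33900593 for StcE. All 8 endothelial markers had a mean FPKM of at least 1, led by *Cdh5* (486 FPKM). Their summed level was 1650 to 1800 FPKM in saline and 1570 to 1670 FPKM in StcE samples. Of the 8, all tested, 4 were lower at a limma adjusted p under 0.05, against 6.41% of all tested genes. The log2 fold change was below 0 in 7 of the 8. The calls for *Tie1* and *Tek* held in 21 of 22 alternatives each, that for *Pecam1* in 8 and that for *Esam* in 3. The summed markers of each other cell type stayed at or under 5.09 FPKM in every sample, the most abundant being *Acta2* of mural cells (3.14 FPKM). The neuron list summed to 1.91 to 2.73 FPKM in saline and 2.52 to 3.23 FPKM in StcE samples, which was *Tubb3* almost alone. *Tubb3* was the only 1 of its 4 markers tested and was higher. *Rbfox3*, *Snap25* and *Syt1* averaged at most 0.00101 FPKM. The part of these shifts in the results below was not tested, and fewer cells of a type and less RNA per cell cannot be told apart in bulk samples.

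No zinc gene passed the test after StcE. The limma test was run on log2(FPKM + 1) for the 11062 genes whose FPKM averaged 1 or more, among them 8 of the 9 zinc genes, and 0 of the 8 passed a Benjamini-Hochberg adjusted p of 0.05, against 11.9% of all tested genes (5.52% higher and 6.41% lower). At an unadjusted p under 0.05 stood 1 of the 8, *Slc39a14*, against 27.8% of all tested genes, and voom on recovered fragments gave the same counts of 0 and 1. In 0 of the 8 tested zinc genes were the saline and StcE samples apart, against 10.7% of all tested genes. With 8 genes, none of these shares can be told apart from the share over all tested genes. The 95% confidence intervals of the fold changes, on the FPKM + 1 scale, lay between 0.924 and 1.24 for all 8 genes, and between 0.924 and 1.13 without *Mt1*. The median size of the log2 fold change was 0.0515 over the 8 genes and 0.0571 over all tested genes.

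**Figure D1:**
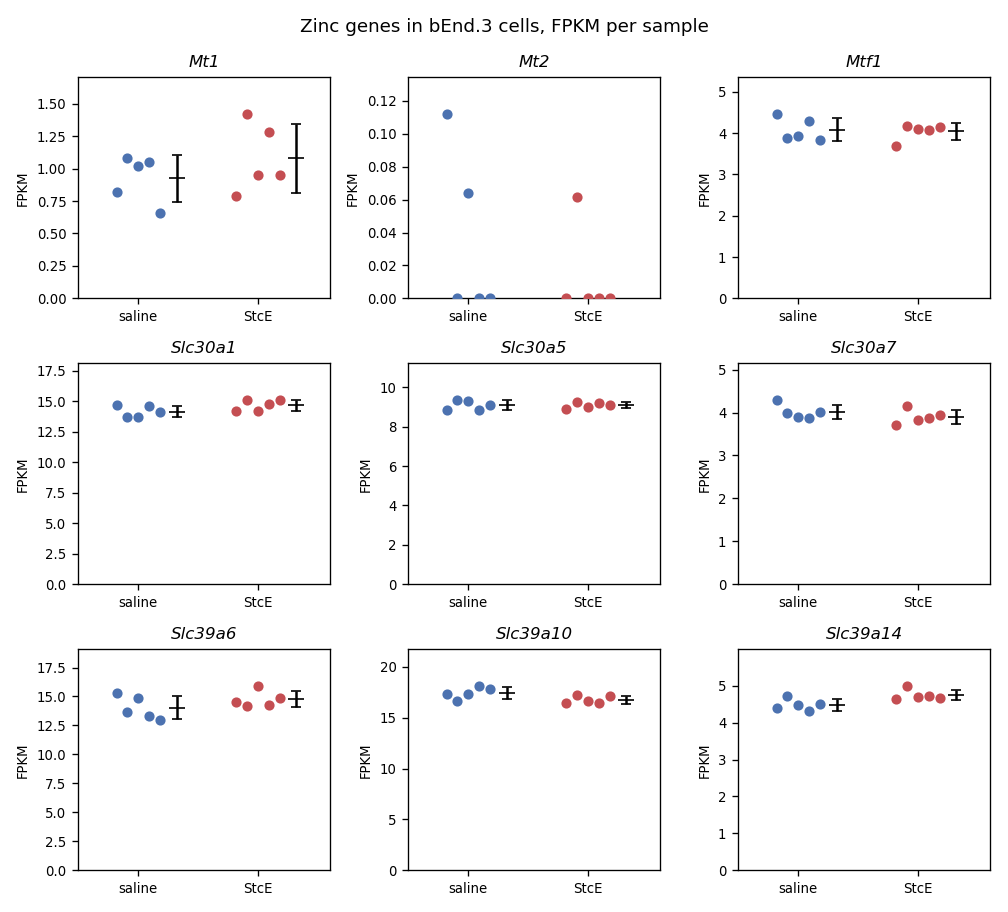
FPKM (y axis, linear) of each zinc gene in each saline and StcE sample, with the mean and SD of 5 samples per group (*Mt2* without an error bar). The 2 groups overlap in every panel, and *Mt2* is at 0 in 7 of 10 samples.

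**Figure D2:**
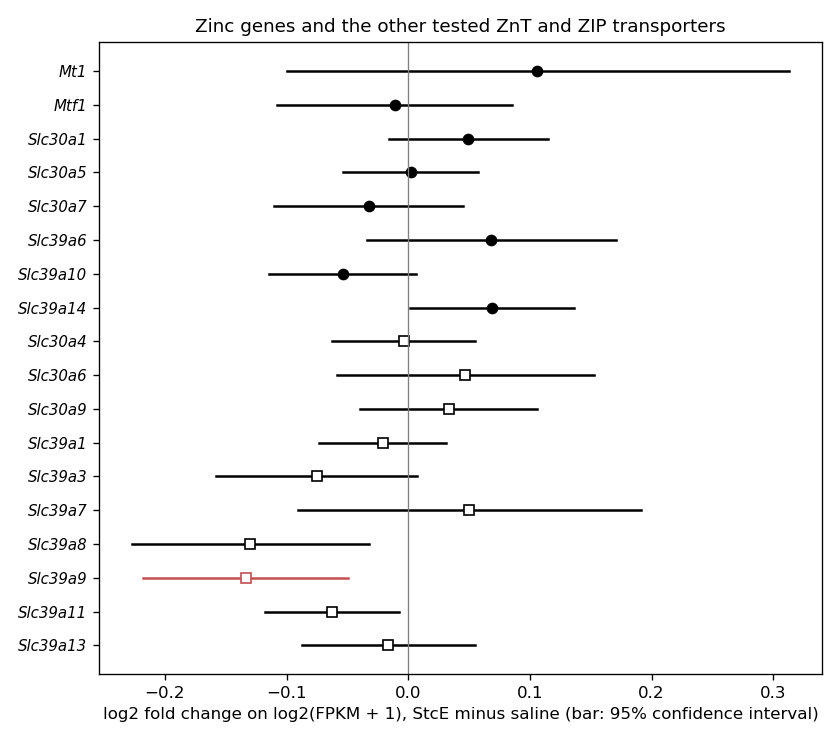
Log2 fold change of StcE over saline on log2(FPKM + 1) (x axis) with its 95% confidence interval for the 8 tested zinc genes (circles) and the 10 other tested ZnT and ZIP transporters (squares). Of these 18 genes *Slc39a9*, in red, alone passed the adjusted threshold, at -0.13.

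The regulatory sequences of the metal-responsive members are shown because zinc acts on these genes through them. Promoters came from RefSeq (GRCm38.p6) and ran from 250 bases before to 50 bases after the start site, and 7 of the 9 genes matched, with 8 promoters. The metal response element core was searched as TGCACNC or TGCGCNC on both strands. The 250 bases before the start are printed below, 5′ to 3′ on the gene's strand, with cores in capitals. They lie at chr8:94178839-94179088 (+) for *Mt1*, chr8:94172368-94172617 (+) for *Mt2* and chr1:191906531-191906780 (+) for *Slc30a1*.
Mt1: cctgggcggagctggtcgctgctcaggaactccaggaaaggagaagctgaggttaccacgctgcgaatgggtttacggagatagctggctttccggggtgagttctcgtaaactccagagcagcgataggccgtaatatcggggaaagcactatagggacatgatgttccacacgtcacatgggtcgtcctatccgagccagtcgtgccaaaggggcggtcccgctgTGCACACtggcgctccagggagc
Mt2: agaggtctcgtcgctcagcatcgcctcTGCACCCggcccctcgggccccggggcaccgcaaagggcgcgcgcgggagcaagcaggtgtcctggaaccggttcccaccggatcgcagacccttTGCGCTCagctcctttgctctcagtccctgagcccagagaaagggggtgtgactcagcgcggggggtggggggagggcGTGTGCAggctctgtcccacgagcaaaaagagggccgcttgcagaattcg
Slc30a1: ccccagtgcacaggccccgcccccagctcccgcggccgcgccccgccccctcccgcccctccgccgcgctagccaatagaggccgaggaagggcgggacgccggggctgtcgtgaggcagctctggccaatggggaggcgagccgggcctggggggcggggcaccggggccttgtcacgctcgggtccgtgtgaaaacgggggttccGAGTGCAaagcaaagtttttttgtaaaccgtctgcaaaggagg
At least 1 core stood in 25.7% of the 32851 promoters, at least 2 in 7.11%, at least 3 in 1.97% and at least 4 in 0.517%. Over the whole windows *Mt2* held 4 cores, *Mt1* 3, *Slc30a1* 2 and *Slc30a5* 1. The promoters of *Mtf1*, *Slc30a7* and *Slc39a10* held 0. In *Mt1* and *Mt2* more cores lay just after the RefSeq start. For *Mt1* an annotated single-exon transcript begins 152 bases further on, and a transcript of 2 exons 122 bases further on. Before each of these starts 5 cores lay within 250 bases. For *Mt2* a transcript of 3 exons begins 242 bases further on. All 7 cores of the 508 bases scanned lay before that start, 4 of them within 250 bases. The antioxidant response core TGACNNNGC, on both strands, stood once each in the promoters of *Mt2*, *Slc30a1* and *Slc30a5* and in 12.4% of all promoters. A match describes the letters only and is not a site of binding.

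*Mt1*, a small cysteine-rich protein that binds zinc and copper, was barely expressed. It lies on chromosome 8 at 94179082 to 94180327 on the plus strand (GRCm38, GENCODE vM21). The saline samples 1, 2, 3, 4 and 5 held 0.818, 1.08, 1.02, 1.05 and 0.66 FPKM, and the StcE samples 1, 2, 3, 5 and 6 held 0.785, 1.42, 0.949, 1.28 and 0.954 FPKM. StcE replicates 2 and 5 were the highest samples and saline replicate 5 the lowest, and the other values interleaved. The mean was 0.926 ± 0.18 FPKM in saline and 1.08 ± 0.264 FPKM in StcE (SD, n = 5 each). The log2 fold change was 0.11 (SE 0.0944, 95% interval -0.10 to 0.31, limma adjusted p = 0.507), and the exact two-sided permutation test gave p = 0.325. On the FPKM scale without a pseudocount the log2 ratio of the means was 0.22.

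Depth limited this gene. Between 20 and 56 fragments per sample lay behind *Mt1*, 149 in all saline and 199 in all StcE samples. Counting error alone gave a coefficient of variation of 18.3% in saline and 15.9% in StcE, beside observed values of 19.4% and 24.5%. A fold change above 1.24 lay outside the interval for *Mt1* on the FPKM + 1 scale only. With a pseudocount of 0.1 the log2 fold change was 0.191 (SE 0.176), and with voom 0.23 (SE 0.2). The bound of 1.24 does not apply to those scales. The FPKM used an exon length of 1246 bases, which includes this single-exon transcript (1085 bases) and is 2.27 times the length of the spliced transcript of 3 exons (549 bases).

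*Mt2*, the neighbouring metallothionein (chromosome 8, 94172664 to 94173568, plus strand), was at the limit of detection in every sample. Saline replicates 1 and 3 held 0.112 and 0.0638 FPKM and the other saline samples 0. StcE replicate 2 held 0.0615 FPKM and the other StcE samples 0. These values are 3 fragments in all saline and 1 in all StcE samples, at or under the 3 fragments per sample (0.146 to 0.222 FPKM) that a count of 0 allows, so no fold change is given. Exons of *Gm45774* on the opposite strand cover 73.47% of the *Mt2* exon length, which leaves 1 stretch of 156 bases outside the overlap. In these files 0 of 37 protein-coding genes lying wholly under exons of the opposite strand had a row, against 70.2% of the 16684 without such overlap, and 27.3% of 22 with 90% to under 100% of their length covered. In the range that holds *Mt2*, 50% to under 90%, 81.3% of 155 protein-coding genes had a row and 38.7% had a mean FPKM of at least 1, against 40.3% of those without overlap. The part of the overlap in the low *Mt2* value was not tested. The opposite-strand overlap was 0% for *Mt1* and at most 16.01% (*Slc30a7*) for the other members, with 8.92% for *Slc30a1* and 8.09% for *Mtf1*.

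Part of the genes around the metallothioneins were expressed. Of the 10 protein-coding genes whose starts lay within 200 kb of that of *Mt1*, 9 had a row. A mean FPKM of at least 1 was reached by 6, *Mt1* among them. These 6 were tested and 0 passed, against 11.9% of all tested genes, too few to tell the shares apart. The nuclear pore gene *Nup93*, 35.5 kb downstream of *Mt1*, had 21.9 FPKM. The brain metallothionein *Mt3* had 2 fragments in all 10 samples, and *Mt4* was not analysed here.

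**Figure D3:**
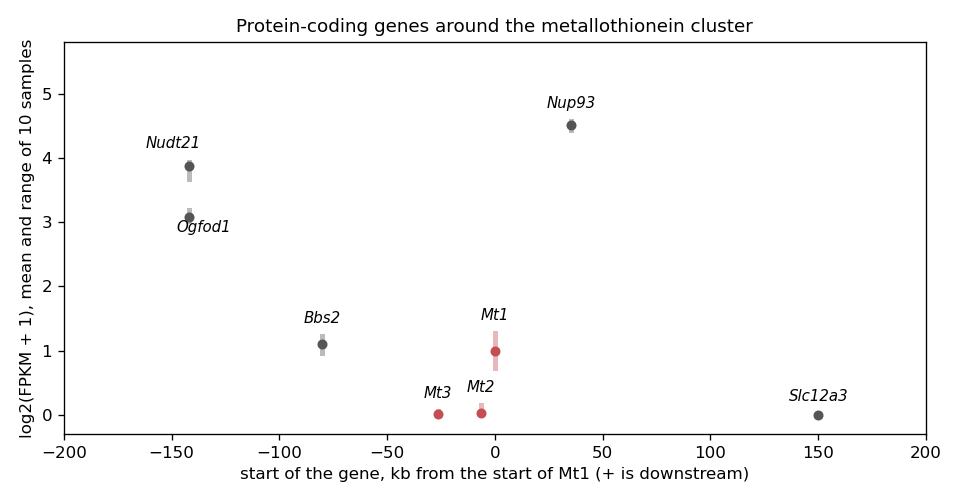
Mean log2(FPKM + 1) over 10 samples (points, with the range as bars) of 8 protein-coding genes of the window, against the distance of their start from that of *Mt1* in kb. *Mt1* (mean 1.00 FPKM) stands far under *Nup93* (21.9 FPKM), and *Mt2* and *Mt3* lie near 0 (metallothioneins in red).

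*Mtf1*, the sensor, is on chromosome 4 (124802104 to 124849800, plus strand). The saline samples 1 to 5 held 4.46, 3.89, 3.94, 4.30 and 3.82 FPKM, and StcE samples 1, 2, 3, 5 and 6 held 3.69, 4.18, 4.10, 4.07 and 4.15 FPKM. StcE replicate 1 was the lowest of all 10 samples, and saline replicates 1 and 4 were the highest. The mean was 4.08 ± 0.28 FPKM in saline and 4.04 ± 0.197 FPKM in StcE (SD, n = 5 each), a log2 fold change of -0.01 (SE 0.0441, limma adjusted p = 0.901) with an interval of -0.11 to 0.09. The sign turned in 3 of the fits that left out 1 sample, with log2 fold changes of 0.0149 without saline replicate 1, 0.00435 without saline replicate 4 and 0.0141 without StcE replicate 1.

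Among the exporters, *Slc30a1* (ZnT1) carries zinc across the plasma membrane out of the cell and is itself a target of MTF1. It lies on chromosome 1 (191906767 to 191913247, plus strand). The saline samples held 14.7, 13.7, 13.7, 14.6 and 14.1 FPKM, and the StcE samples 14.2, 15.1, 14.2, 14.8 and 15.1 FPKM. The 2 highest samples had received StcE and the 2 lowest saline, with overlap between. With 1749 to 2726 fragments per sample, the log2 fold change was 0.05 (SE 0.0299, 95% interval -0.02 to 0.11, limma adjusted p = 0.314), a fold of at most 1.08 at the upper bound. Of the metal-responsive members *Slc30a1* was thus measured most precisely.

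*Slc30a5* (ZnT5) and *Slc30a7* (ZnT7) load zinc into the early secretory pathway, where it reaches zinc-dependent enzymes. For *Slc30a5* (chromosome 13, 100802648 to 100833427, minus strand) the saline samples held 8.83, 9.35, 9.31, 8.83 and 9.08 FPKM, and the StcE samples 8.92, 9.26, 8.98, 9.21 and 9.10 FPKM. All StcE samples lay within the saline range. The means were 9.08 ± 0.251 and 9.09 ± 0.145 FPKM (SD, n = 5 each), and the 95% interval of the fold was 0.963 to 1.04 (limma adjusted p = 0.973). For *Slc30a7* (chromosome 3, 115938973 to 116007406, minus strand) the saline samples held 4.29, 3.99, 3.89, 3.88 and 4.01 FPKM, and the StcE samples 3.71, 4.15, 3.82, 3.88 and 3.95 FPKM. StcE replicates 1 and 3 were the lowest and saline replicate 1 the highest. Its log2 fold change was -0.03 (SE 0.0355, 95% interval -0.11 to 0.05, limma adjusted p = 0.602).

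The importers *Slc39a6* (ZIP6) and *Slc39a10* (ZIP10) are close relatives that can pair in the plasma membrane. *Slc39a10* (chromosome 1, 46807544 to 46892852, minus strand) was the most abundant zinc gene, with saline samples at 17.3, 16.6, 17.3, 18.1 and 17.8 FPKM and StcE samples at 16.4, 17.2, 16.6, 16.4 and 17.1 FPKM. All 5 StcE samples lay under the saline mean, while saline replicate 2 fell among them. The means were 17.4 ± 0.586 and 16.8 ± 0.375 FPKM (SD, n = 5 each), a log2 fold change of -0.05 (SE 0.0275, limma adjusted p = 0.23, exact permutation p = 0.0476 unadjusted). *Slc39a6*, on chromosome 18, held 15.3, 13.7, 14.9, 13.3 and 13.0 FPKM in saline and 14.5, 14.2, 15.9, 14.3 and 14.9 FPKM in StcE samples. Saline replicates 4 and 5 were low and StcE replicate 3 high, and the other samples were mixed. Its log2 fold change was 0.07 (SE 0.0468, 95% interval -0.03 to 0.17, limma adjusted p = 0.376).

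*Slc39a14* (ZIP14) takes up zinc and also iron and manganese, and in liver it is induced by interleukin 6. It lies on chromosome 14 (70303469 to 70351425, minus strand). The saline samples held 4.39, 4.71, 4.47, 4.31 and 4.50 FPKM, and the StcE samples 4.65, 4.99, 4.69, 4.72 and 4.67 FPKM. All 5 StcE samples lay above the saline mean, and saline replicate 2 lay within their range. The means were 4.48 ± 0.15 and 4.74 ± 0.138 FPKM (SD, n = 5 each). The log2 fold change of 0.07 (SE 0.0308) had an unadjusted limma p of 0.0462 and an adjusted p of 0.172, so it did not pass. The exact permutation p was 0.0317, unadjusted over the 8 genes, where the smallest p that 5 against 5 samples allow is 0.00794. Without StcE replicate 2 the log2 fold change was 0.0537.

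In order of FPKM, a scale per exon length, *Slc39a10* (17.1) led, then *Slc39a6* and *Slc30a1* (14.4 each), *Slc30a5* (9.09), *Slc39a14* (4.61), *Mtf1* (4.06), *Slc30a7* (3.96) and *Mt1* (1.00). *Slc39a6* and *Slc30a1* could not be ordered, since either was the higher in 5 of 10 samples. The ranges of *Slc39a14* and *Mtf1*, and of *Mtf1* and *Slc30a7*, overlapped as well, and those of the other neighbours were apart. *Mt1* stood just inside the filter, at rank 11056 of 27024 by mean FPKM.

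Over the 28 pairs of the 8 tested zinc genes, the median Pearson r of the deviations from the group means (10 samples) was 0.168, from -0.37 for *Mtf1* and *Slc30a5* to 0.79 for *Mtf1* and *Slc30a1*, given as a description. StcE replicate 1 was the lowest StcE sample for 7 of the 8 genes and StcE replicate 2 the highest for 6. For *Slc30a1* replicate 1 was all but level with StcE replicate 3 (14.2 FPKM each), and for *Slc39a10* with StcE replicate 5 (16.4 FPKM each). The same count over all tested genes was not made, so these counts cannot be read as a trait of the zinc genes. Among the genes most like *Mt1* by the same measure, of 11061, were *Rap1gds1* (r = 0.932), *Ints5* (0.929), *Gne* (0.927) and *Trmt44* (0.927), while *Slc30a1* ranked 3403 (0.255). The spread of *Mt1* was near its counting error, so these values are a description only.

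In the rest of the transporter families 1 importer passed the test. Of the 7 other ZnT genes 3 were tested and 0 passed. *Slc30a4*, which fills vesicles with zinc, was the most abundant of them at 52.3 FPKM, well above every zinc gene described so far, with a log2 fold change of 0.00 (limma adjusted p = 0.95). Of the 11 other ZIP genes 7 were tested, with 0 higher and 1 lower, a share of 14.3% called against 11.9% of all tested genes. Their median log2 fold change was -0.06, with 6 of 7 below 0, against -0.00066 over all tested genes. *Slc39a1*, the most abundant, had 67.3 FPKM and a log2 fold change of -0.02 (limma adjusted p = 0.617).

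The ZIP gene that passed was *Slc39a9* (ZIP9), a transporter of the Golgi and plasma membrane. Its lowest, median and highest values were 5.76, 6.04 and 6.38 FPKM in saline and 5.07, 5.37 and 5.90 FPKM in StcE samples, so the groups overlapped at 1 end. The log2 fold change was -0.13 (SE 0.0385, limma adjusted p = 0.0445), and the call was lost in 13 of 22 alternatives, 8 of them leaving out 1 sample (saline replicates 1, 3, 4 or 5, or StcE replicates 1, 2, 3 or 6), with adjusted p up to 0.236. *Slc39a8* (ZIP8), the nearest relative of *Slc39a14*, was named after its values were seen. It held 1.08 to 1.22 FPKM in saline and 0.883 to 1.03 FPKM in StcE samples. The groups did not overlap, as in 10.7% of all tested genes. Its log2 fold change was -0.13 and its limma adjusted p was 0.0825, so it did not pass. It passed in 2 of 22 alternatives, without the variance trend and with voom. Over all 24 ZnT and ZIP genes, members included, 16 were tested and 1 (6.25%) passed, against 11.9% of all tested genes. With 16 genes these shares cannot be told apart.

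Other zinc handling genes, such as sensors, channels and chaperones, gave 0 calls among 6 tested, against 11.9% of all tested genes. So few genes cannot tell these shares apart. Their median log2 fold change was 0.04. The most abundant was *Metap1*, a methionine aminopeptidase (11.8 FPKM in both groups, log2 fold change -0.01, limma adjusted p = 0.854).

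**Figure D4:**
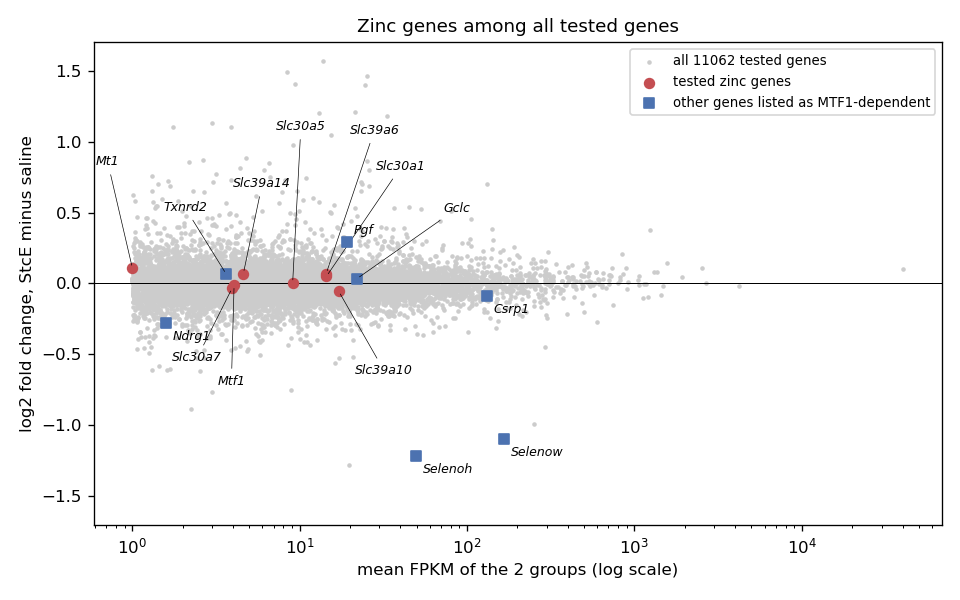
Log2 fold change of StcE over saline (y axis) against the mean FPKM (x axis, log scale) for all 11062 tested genes (grey), the 8 tested zinc genes (red) and 7 further genes listed as MTF1-dependent (blue squares). The zinc genes lie between -0.05 and 0.11, and *Selenoh* and *Selenow* stand apart at -1.22 and -1.10.

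Genes described elsewhere as dependent on MTF1 moved in both directions. Of 7 tested, 1 was higher and 4 were lower (71.4% called, against 11.9% of all tested genes, median log2 fold change -0.09), but *Selenow* and *Selenoh* were known to be lower when the list was drawn up, so its count is not independent evidence. *Selenoh*, a selenoprotein of the nucleus, held 66.0, 69.3 and 76.4 FPKM (lowest, median and highest) in saline and 28.8, 29.2 and 30.7 FPKM in StcE samples. *Selenow*, a small selenoprotein, fell from 229 ± 7.3 to 106 ± 6.39 FPKM (SD, n = 5 each). Their log2 fold changes were -1.22 (limma adjusted p = 1.1e-09) and -1.10 (7.6e-09), and in both genes the groups were far apart. Both proteins need selenium for their synthesis.

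The other members of that list moved less. *Pgf*, a growth factor of the VEGF family, rose from 17.2 ± 0.418 to 21.3 ± 1.67 FPKM (SD, n = 5 each, log2 fold change 0.29, limma adjusted p = 0.00229). *Ndrg1*, a stress- and hypoxia-induced gene, fell from 1.84 to 1.34 FPKM (log2 fold change -0.28, limma adjusted p = 0.0178), and *Csrp1*, a LIM-domain zinc-binding protein, from 135 to 127 FPKM (-0.09, adjusted p = 0.0219). The call for *Csrp1* was lost in 5 of 22 alternatives, without saline replicate 3, without StcE replicate 5, and at the same total FPKM (adjusted p = 0.151) among them, with an adjusted p of up to 0.172. The call for *Ndrg1* was lost in 3, with an adjusted p of up to 0.0618 (no filter). *Gclc*, which makes glutathione, and *Txnrd2*, a mitochondrial thioredoxin reductase, had log2 fold changes of 0.03 (limma adjusted p = 0.518) and 0.06 (0.377).

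Metallothioneins also bind copper and respond to glucocorticoids and interleukin 6, so genes of these inputs were set beside them. Of 7 tested copper genes 1 was lower, a share of 14.3% near the 11.9% of all tested genes. This gene, *Atp7a*, the copper-exporting ATPase, held 10.4, 10.5 and 10.9 FPKM (lowest, median and highest) in saline and 8.62, 9.10 and 9.65 FPKM in StcE samples. The groups were apart, with a log2 fold change of -0.20 (SE 0.0320, limma adjusted p = 0.00225). The copper chaperone *Atox1* (174 FPKM) had 0.02 (adjusted p = 0.792). Of 6 tested glucocorticoid-induced genes 2 were higher and 0 lower (33.3% called, against 11.9% of all tested genes, of which 5.52% higher), with a median log2 fold change of -0.02. In 3 of the 6 the log2 fold change was below 0 without a call. These were *Klf9* (-0.15, limma adjusted p = 0.123), *Per1* (-0.11, 0.131) and *Fkbp5* (-0.08, 0.229). *Tsc22d3* (GILZ), an anti-inflammatory leucine-zipper protein, rose from 3.58 ± 0.224 to 4.75 ± 0.156 FPKM (SD, n = 5 each, log2 fold change 0.33, limma adjusted p = 3.4e-04). *Dusp1*, a MAP kinase phosphatase, rose from 81.1 to 92.1 FPKM (log2 fold change 0.18, limma adjusted p = 0.0262). This call was lost in 10 of 21 alternatives, voom not being run for it. Of 6 tested genes of the interleukin 6 and STAT3 response 0 passed, and *Il6st*, the shared receptor subunit gp130, went from 14.8 to 13.9 FPKM (log2 fold change -0.08, limma adjusted p = 0.055).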

How the data were processed

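mRNA of 10 bEnd.3 samples had been selected with poly-T beads and made into directional (dUTP) paired-end libraries. The authors trimmed the reads and aligned them to GRCm38, and the submitters' processing notes name HISAT2 2.0.5, featureCounts 1.5.0-p3, DESeq2 1.32.0 and mm10. The annotation release and the strand setting of the counting are not given in the sources used here. The deposited values are FPKM, 1 column per sample, normalised by the authors. Of 49898 rows, 22874 had no gene name and were left out.

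Fragments were recovered from FPKM and GENCODE vM21 exon lengths: 96.6% of values above 0 came out whole (within 0.01 fragment), and 25880 genes in every sample. Genes averaging 1 FPKM or more entered the main test, limma 3.58.1 (lmFit, eBayes with trend, R 4.3.3) on log2(FPKM + 1), 5 saline against 5 StcE samples, with Benjamini-Hochberg adjustment over 11062 genes and a threshold of 0.05. Fold changes on this scale understate those of low genes. The method was tested on simulated data. Single genes were also tested with an exact two-sided permutation test (scipy 1.17.1). Samples of 1 group differed by more than sampling noise (chi-square per degree of freedom 3.22 to 9.57), so none was counted as the same library sequenced again. This check cannot tell separate cultures from separate libraries of 1 culture. Alternatives changed the pseudocount, filter, scaling, variance model, sample weights and samples, and used voom on the fragments. Intervals from fragments cover counting error only. Opposite-strand overlap was computed per gene from the same annotation, a check added after the data were seen. Replicate numbers 1, 2, 3 and 5 occur in both groups but did not mark shared deviations. Named are the 9 zinc genes, list genes that passed and the most abundant tested gene of each list, the 5 genes most like *Mt1*, and the leading markers. Some items that this rule covers are not reported here. The genes and lists were chosen with earlier results of these data known.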

Additional observations from a re-analysis of the deposited data

Results flagged for a closer look

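In 3 of the 36 groups of 5 samples examined, 1 sample stood apart from the others by Dixon's test at its 95% critical value of 0.71, where chance gives about 1 in 20 (1.8 groups). *Mt2* was 0.0615 FPKM in StcE replicate 2 and 0 in the other StcE samples, which is 1 fragment. Any value above 0 beside 4 zeros gives Dixon's ratio of 1.0, so *Mt2* cannot be set against the rate of 1 in 20. *Mtf1* was 3.69 FPKM in StcE replicate 1 and 4.07 to 4.18 FPKM in the other StcE samples, and without this sample its log2 fold change was 0.0141 (limma adjusted p = 0.878). *Slc39a14* was 4.99 FPKM in StcE replicate 2 and 4.65 to 4.72 FPKM in the other StcE samples, and without this sample its log2 fold change was 0.0537 (limma adjusted p = 0.294).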

How the results depend on the processing

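None of the 8 tested zinc genes passed the adjusted threshold in any of 22 alternatives (176 refits). The sign of the smallest 2 differences turned: *Mtf1* ranged from -0.0301 to 0.0149 and *Slc30a5* from -0.00717 to 0.0117 when 1 sample was left out, and *Slc30a5* was -0.00887 with samples scaled to the same total FPKM and -0.00701 both with the replicate block and in the 8 samples of shared numbers without it, a setting added after the data were seen. Over all tested genes, 1320 calls (611 higher, 709 lower, 53.7% lower) became 801 (392 and 409) with no filter, 790 (272 higher, 65.6% lower) at the same total FPKM, and 349 (187 and 162) with the replicate block. The 8 unpaired samples gave 885 calls (452 lower). Leaving out 1 sample gave 793 to 1255 calls, 384 to 588 higher and 409 to 667 lower, lowest without StcE replicate 3 and next, at 838 (428 lower), without saline replicate 1. The zinc, MTF1, copper, glucocorticoid and STAT3 lists together held 9 calls, 5 with the replicate block. *Csrp1* and *Ndrg1* lost their calls with the block (adjusted p = 0.172 and 0.0585) and in the 8 unpaired samples (0.0616 and 0.0539). The other ZnT and ZIP genes held 1 call, 0 at a mean FPKM of at least 0.1, with no filter, array weights, the replicate block or the 8 unpaired samples, 2 without the variance trend and with voom, and 0 to 1 when 1 sample was left out. The causes were not tested. Shared numbers gave no pairing: same-numbered samples correlated at -0.0966 to 0.0538 in their deviations from the group means. Depth limits *Mt1* (20 to 56 fragments per sample) and *Mt2* (0 to 2).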
